A study of Mus musculus with 4 samples.

Results

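Among 31792 mouse islet cells from 4 single-cell libraries, 267 carried messenger RNA of both insulin and pancreatic polypeptide, the hormones of the beta cell and of the PP cell, under one cell barcode. These insulin/Ppy cells were selected on their own RNA. Insulin (Ins1 and Ins2 together) had to take at least 4% and Ppy at least 1% of the unique molecular identifiers (UMIs, each marking one captured RNA molecule) of a barcode, with glucagon (Gcg) under 2% and somatostatin (Sst) under 1%. They were set beside 20279 insulin cells, which met the same limits with Ppy under 1%, and 634 PP cells, which met them with insulin under 4%. Barcodes entered with 1000 or more UMIs, 500 or more genes, and mitochondrial UMIs no higher than 20%.

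The islets came from wild-type C57BL6J mice, males aged 8 weeks, and were kept in culture for 24 h. One culture had 1 mM imeglimin at 11.1 mM glucose, one had the DMSO vehicle at 11.1 mM glucose, one had 1 mM imeglimin at 3.9 mM glucose and one had the vehicle at 3.9 mM glucose. Imeglimin is an oral glucose-lowering drug that acts on mitochondria. Each condition is 1 library, and the labels do not give the number of mice behind it. No difference between conditions has a replicate check, no p-value is given, and cells are not counted as replicates. Intervals are 95% intervals that cover counting error only.

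The islet holds several endocrine cell types that each make mainly 1 hormone. Beta cells release insulin when glucose rises, alpha cells glucagon, delta cells somatostatin, and PP cells pancreatic polypeptide, a peptide of the neuropeptide Y family that acts on appetite and on the exocrine pancreas. Pyy encodes peptide YY, a relative of pancreatic polypeptide, and islet cells of several types can make it. In mice, cells with more than one hormone have been described in the developing and the stressed islet. In droplet sequencing, a beta cell and a PP cell that enter the same droplet also leave both hormones under one barcode, so the number of UMIs per barcode is given with each result below. In addition, RNA set free from broken cells can place hormone UMIs in any barcode.

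The 2 genes of the PP peptide family lie next to each other. In the mouse assembly GRCm38.p6, Ppy occupies chr11:102099931-102101319 and Pyy chr11:102106676-102107832, both on the minus strand, with 5356 bases between the end of Pyy and the start of Ppy. Ins1 lies at chr19:52264297-52265015 on the plus strand, and Ins2 at chr7:142678656-142679726. The 250 bases before the start of Ppy (chr11:102101320-102101569), Pyy (chr11:102107833-102108082) and Ins1 (chr19:52264047-52264296), from RefSeq, are shown. Ppy and Ins1 belong to the selection of these cells, and Pyy is the neighbour of Ppy. The right-hand end of each window adjoins the gene start that RefSeq gives. Where transcription begins in these cells was not tested. Capitals mark the letters TATAA and TAAT, searched on both strands. TAAT is the core letter string of homeodomain factors.
Ppy: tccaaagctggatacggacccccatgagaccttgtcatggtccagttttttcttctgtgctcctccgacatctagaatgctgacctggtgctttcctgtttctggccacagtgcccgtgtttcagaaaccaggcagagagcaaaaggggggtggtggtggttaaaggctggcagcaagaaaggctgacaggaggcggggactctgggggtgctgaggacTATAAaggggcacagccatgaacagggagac
Pyy: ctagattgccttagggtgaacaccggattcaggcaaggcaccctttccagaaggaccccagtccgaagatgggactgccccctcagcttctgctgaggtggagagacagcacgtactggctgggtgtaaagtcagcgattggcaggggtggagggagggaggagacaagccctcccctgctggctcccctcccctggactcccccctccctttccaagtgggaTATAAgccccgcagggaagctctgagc
Ins1: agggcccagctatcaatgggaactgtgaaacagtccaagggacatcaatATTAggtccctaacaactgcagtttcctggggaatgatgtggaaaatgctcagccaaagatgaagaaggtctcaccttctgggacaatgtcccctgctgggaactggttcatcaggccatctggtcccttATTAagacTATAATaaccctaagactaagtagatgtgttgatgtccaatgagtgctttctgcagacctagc
Each of the 3 windows holds TATAA 1 time, and 22.78% of 32851 mouse promoter windows hold it at least 1 time. The Ins1 window holds TAAT 3 times, 1 of them overlapping TATAA, whereas neither the Ppy nor the Pyy window holds it. TAAT is found in 54.92% of the promoter windows, so its presence is common. These matches describe the letters only.

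Before filtering, the libraries held 35707 barcodes, with 91245564 to 106092232 UMIs each. The median kept barcode had 11400 UMIs with imeglimin at 11.1 mM, 12035 with vehicle at 11.1 mM, 8832 with imeglimin at 3.9 mM and 11656.5 with vehicle at 3.9 mM. Pairs of libraries shared 15 to 24 kept barcodes. The barcode of 1 insulin/Ppy cell was also kept in another library, and it was not an insulin/Ppy cell there. Among the barcodes that missed the limits on UMIs, genes or mitochondrial UMIs, 2, 1, 8 and 1 carried both hormones in the imeglimin 11.1 mM, vehicle 11.1 mM, imeglimin 3.9 mM and vehicle 3.9 mM libraries.

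Insulin/Ppy cells were present in all 4 libraries. There were 52 among 8427 cells with imeglimin at 11.1 mM, a share of 0.617% (0.461 to 0.808). Vehicle at 11.1 mM had 96 among 7444 cells, 1.29% (1.05 to 1.57). With imeglimin at 3.9 mM there were 47 among 8755 cells, 0.537% (0.395 to 0.713), against 72 among 7166 cells, 1.00% (0.787 to 1.26), with vehicle at 3.9 mM. The share was lower with imeglimin than with vehicle at both glucose levels, and the counting intervals of the 2 treatments did not overlap at either. At 3.9 mM they did overlap with the Ppy limit at 2%, with the insulin limit at 8%, with a minimum of 3000 UMIs, and without the barcodes over the 95th percentile of insulin-cell UMIs. Whether this exceeds the variation between cultures was not tested, since each condition is 1 library.

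The limits cut through continuous ranges. Ppy took 1% to 1.5% of UMIs in 56 of the 267 insulin/Ppy cells, and 109 insulin cells had Ppy at 0.5% to 1%. The lowest Ppy share of an insulin/Ppy cell was 1.006% and the highest of an insulin cell was 0.994%. The insulin counts use windows that are narrower relative to their limit, and PP cells are far fewer than insulin cells. They are therefore not set against the Ppy counts. Insulin took 4% to 5% of UMIs in 17 insulin/Ppy cells, and 35 PP cells had insulin at 3% to 4%, 29 of which came from the 3.9 mM libraries.

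In most insulin/Ppy cells insulin was the more abundant hormone, and both hormones stood below their level in the cells with one of them. Median insulin share was 14.8%, 17.8%, 10.2% and 8.30% of UMIs in insulin/Ppy cells of the imeglimin 11.1 mM, vehicle 11.1 mM, imeglimin 3.9 mM and vehicle 3.9 mM libraries, against 27.5%, 32.9%, 13.9% and 9.38% in insulin cells. Median Ppy share was 2.48%, 3.14%, 4.30% and 3.75% in insulin/Ppy cells, against 14.8%, 17.7%, 13.9% and 14.1% in PP cells of the same libraries. These levels describe the selection and support nothing else. Ppy exceeded insulin in 28 of the 267 cells, and 23 of these 28 came from the 3.9 mM libraries. Single cells covered a wide range, with insulin from 4.06% to 49.3% and Ppy from 1.006% to 20.5% of UMIs.

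Pyy, which the selection did not use, accompanied Ppy. It took at least 1% of UMIs in 235 of the 267 insulin/Ppy cells. The median Pyy share was 2.26%, 3.98%, 2.63% and 3.74% in insulin/Ppy cells of the imeglimin 11.1 mM, vehicle 11.1 mM, imeglimin 3.9 mM and vehicle 3.9 mM libraries, against 9.72%, 14.9%, 6.39% and 10.6% in PP cells. Relative to Ppy, however, the median Pyy level was similar in the 2 classes. The median cell had 0.735, 1.07, 0.567 and 0.875 Pyy UMIs for each Ppy UMI among insulin/Ppy cells, against 0.725, 0.898, 0.522 and 0.820 among PP cells of these libraries. This median ratio was lower with imeglimin than with vehicle in both classes at both glucose levels. Single cells varied widely. With vehicle at 3.9 mM, 1 insulin/Ppy cell had no Pyy UMI with Ppy at 3.62%. Another had Pyy at 5.64% with Ppy at 1.41%.

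The insulin UMIs of these cells came mostly from Ins2, and Ins1 had a smaller part than in insulin cells of the same library, in all 4 libraries. Ins1 supplied 22.2%, 27.0%, 8.79% and 10.1% of all insulin UMIs in insulin/Ppy cells of the imeglimin 11.1 mM, vehicle 11.1 mM, imeglimin 3.9 mM and vehicle 3.9 mM libraries, against 26.2%, 33.3%, 9.38% and 10.8% in insulin cells. Both classes had the lower Ins1 part in the 3.9 mM libraries. Islet amyloid polypeptide (Iapp), which beta cells release with insulin, took a median of 7.26%, 8.43%, 3.93% and 5.18% of UMIs in insulin/Ppy cells of these libraries.

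Hormone UMIs were also counted in cells of types that make neither hormone. Endothelial cells, one such type, had a median insulin share of 0.351%, 0.272%, 1.18% and 0.267% in the imeglimin 11.1 mM, vehicle 11.1 mM, imeglimin 3.9 mM and vehicle 3.9 mM libraries, and a median Ppy share of 0. Insulin reached 4% in 1.56%, 4.62%, 6.39% and 2.61% of endothelial cells of these libraries, and in 2.11%, 0.781%, 10.3% and 2.92% of macrophages, so insulin UMIs reached the limit in part of the barcodes of both types. Ppy reached 1% in at most 1.03% of the endothelial cells of a library. The median UMI number of endothelial cells was 2936, 5832, 3743.5 and 6115 in these libraries, below that of insulin/Ppy cells in each. Somatostatin cells carried Ppy of their own, with medians of 0.852%, 1.015%, 0.342% and 1.05%, and are kept out by the Sst limit. No insulin/Ppy cell reached the level that marks endothelial cells, and 1, with imeglimin at 11.1 mM, reached that of macrophages.

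Insulin/Ppy barcodes held more RNA than the barcodes of either single class. The median was 14677.5, 17705, 21729 and 22173 UMIs in insulin/Ppy cells of the imeglimin 11.1 mM, vehicle 11.1 mM, imeglimin 3.9 mM and vehicle 3.9 mM libraries. Insulin cells had medians of 12755.5, 13010, 9552 and 12270 UMIs, and PP cells 6788.5, 7777, 8158 and 10032.5 UMIs. The ratio of the medians to insulin cells was 1.15 (0.881 to 1.66) with imeglimin at 11.1 mM and 1.36 (1.05 to 1.60) with vehicle at 11.1 mM. At 3.9 mM it was 2.27 (1.65 to 2.47) with imeglimin and 1.81 (1.37 to 2.16) with vehicle. Set against the sum of the insulin and PP medians, the insulin/Ppy median was 0.751, 0.852, 1.23 and 0.994 times as high in these libraries. This sum is only a rough mark for a droplet with 1 cell of each class, since medians need not add.

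The UMI numbers were spread over both sides of the insulin median. In the imeglimin 11.1 mM, vehicle 11.1 mM, imeglimin 3.9 mM and vehicle 3.9 mM libraries 21, 34, 4 and 14 insulin/Ppy cells lay at or under the median of the insulin cells, 73 in all. The other 194 lay over it, and 65 of these exceeded the 95th percentile of insulin cells. Of the insulin/Ppy cells at 3.9 mM, 31.9% with imeglimin and 33.3% with vehicle exceeded that percentile. The shares were 13.5% with imeglimin and 19.8% with vehicle at 11.1 mM. The percentile was taken from the insulin cells of each library. Among PP cells the share was also higher at 3.9 mM, with 4.48% for imeglimin and 5.13% for vehicle. At 11.1 mM it was 0.704% of PP cells with imeglimin and 0.885% with vehicle. No doublet caller was run. How many of these barcodes hold more than 1 cell was not tested, and the results below are given for the cells on each side of the insulin median where they differ.

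**Figure D1:**
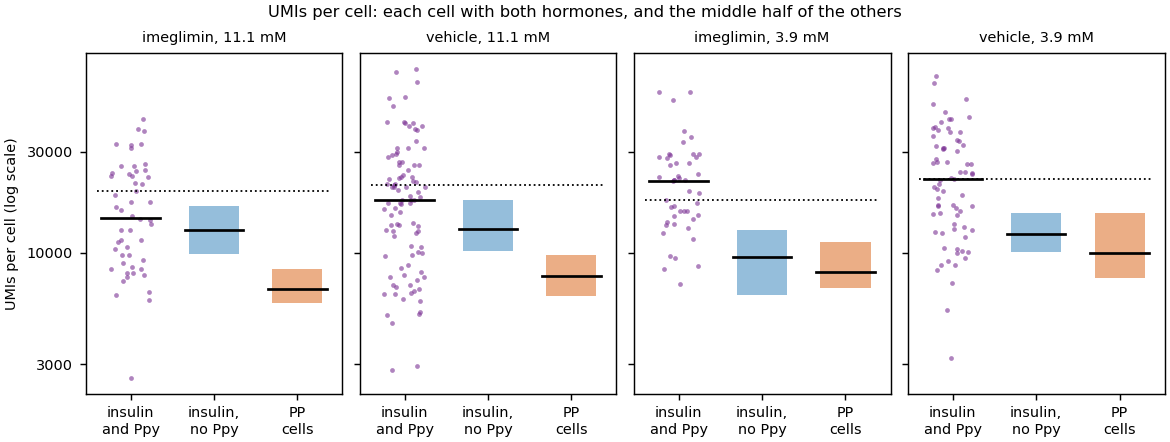
UMIs per cell (log axis) in each of the 4 libraries, with a point for every insulin/Ppy cell, boxes from the lower to the upper quartile for insulin and PP cells, black lines at the medians and a dotted line at the sum of the insulin and PP medians. Insulin/Ppy cells lie highest by median in every library, from 14677.5 to 22173 UMIs, but 73 of 267 lie at or under the insulin median.

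At equal depth the number of genes did not separate the classes. With every barcode thinned to 1000 UMIs, the median was 533.5, 506, 550 and 597 genes in insulin/Ppy cells of the imeglimin 11.1 mM, vehicle 11.1 mM, imeglimin 3.9 mM and vehicle 3.9 mM libraries. Insulin cells had 487, 469, 549 and 635 genes, and PP cells 519.5, 506, 554 and 548.5 genes. Without thinning, insulin/Ppy cells had medians of 3825.5 to 4938 genes, insulin cells 2843 to 3786 and PP cells 2307 to 2933.

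Insulin was met in part of the cells of each other islet hormone. Among cells past the Ppy limit, with Gcg and Sst under theirs, insulin passed its limit in 26.8% (20.7 to 33.6), 45.9% (39.0 to 52.9), 17.4% (13.1 to 22.5) and 31.6% (25.6 to 38.0) in the imeglimin 11.1 mM, vehicle 11.1 mM, imeglimin 3.9 mM and vehicle 3.9 mM libraries. For glucagon cells the share was 20.4%, 28.5%, 16.5% and 24.2%, and for somatostatin cells, for which Ppy was not limited since they carry it, 35.03%, 31.06%, 17.38% and 14.19%. Insulin cells made up most of each library. The pair ratio sets the number of cells with both hormones against the product of the single frequencies, with 1 for independence. It was 0.392, 0.646, 0.311 and 0.492 for insulin with Ppy, 0.292, 0.392, 0.285 and 0.366 for insulin with Gcg, and 0.499, 0.425, 0.306 and 0.219 for insulin with Sst. For insulin with endothelial markers it was 0.021, 0.060, 0.107 and 0.038 in these libraries.

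The Ppy ratio was therefore below 1 in every library, above the Gcg ratio in every library, and above the Sst ratio in all but imeglimin at 11.1 mM. Its counting interval was clear of that for Gcg in vehicle 11.1 mM alone, at 0.549 to 0.745 for Ppy and 0.348 to 0.437 for Gcg. Barcodes with 3 hormones were also seen. Insulin, Ppy and Gcg passed their limits together in 18, 28, 24 and 30 barcodes of these libraries. Their medians were 25102, 38358.5, 28101 and 27489 UMIs, above the insulin/Ppy medians. Insulin, Ppy and Sst did so in 23, 39, 8 and 11 barcodes, with medians of 22635, 23404, 14280 and 20585 UMIs. The medians with Sst lay above the insulin/Ppy medians at 11.1 mM but below them at the lower glucose level.

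**Figure D2:**
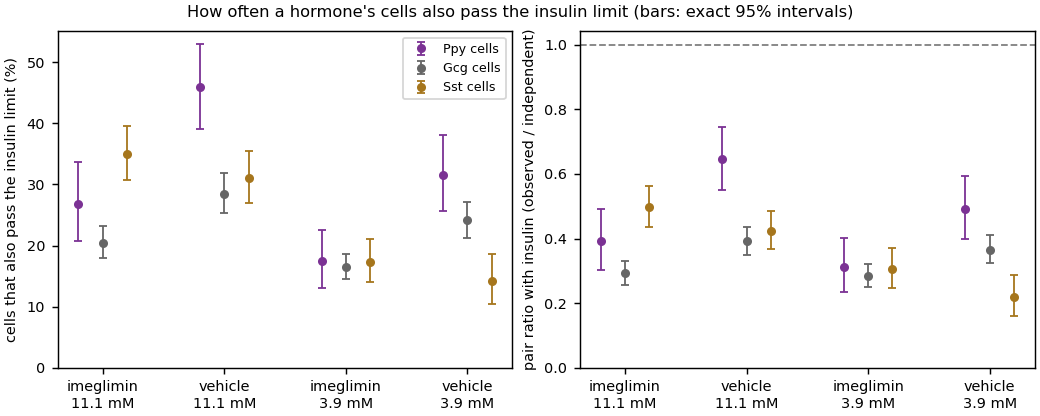
Percentage of Ppy, Gcg and Sst cells that also pass the insulin limit (left) and the pair ratio with insulin, with a dashed line at 1 (right), by library, with exact 95% intervals. The Ppy share is highest with vehicle at 11.1 mM (45.9%) and lowest with imeglimin at 3.9 mM (17.4%), and no pair ratio reaches 1.

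Gene levels were then compared on sums of UMIs over the cells of a class, scaled with TMM (trimmed mean of M-values) and given as CPM, the count a sum would have at one shared total. A gene was called where it was at least 2-fold apart in the same direction in all 4 libraries, with at least 50 CPM in either class in each. The hormone limits chose these cells and sort them between the 2 classes, so the calls are a description. Against insulin cells, 15 of 2325 genes (0.645%) were higher in insulin/Ppy cells, and 0 (0%) were lower. Against PP cells, 10 of 2228 genes (0.449%) were higher and 4 (0.18%) lower. Plain CPM moved the median gene against insulin cells by up to 0.32 on the log2 scale, in imeglimin 11.1 mM, relative to TMM.

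The named genes furthest above insulin cells all stood higher in PP cells than in insulin cells. Pyy stood at 35985, 49980, 31327 and 37041 CPM in insulin/Ppy cells of the imeglimin 11.1 mM, vehicle 11.1 mM, imeglimin 3.9 mM and vehicle 3.9 mM libraries, against 471, 1028, 465 and 877 CPM in insulin cells and 102560, 147840, 68745 and 94399 CPM in PP cells. The Pyy values of the 3 classes did not overlap. Tspan8, a membrane tetraspanin, stood at 242, 337, 277 and 261 CPM in insulin/Ppy cells, against 17.7, 23.8, 23.2 and 24.5 CPM in insulin cells and 610, 949, 531 and 738 CPM in PP cells. Folr1, a folate receptor, ranged from 60.7 to 97.7 CPM in insulin/Ppy cells, against 7.98 to 15.8 CPM in insulin cells and 120 to 231 CPM in PP cells. Folr1 RNA was met in 53.8% of insulin/Ppy cells with imeglimin at 11.1 mM and 60.4% with vehicle at 11.1 mM, against 8.38% of insulin cells with imeglimin and 15.2% with vehicle. Its UMIs were therefore spread over many of the insulin/Ppy cells.

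Further genes in this group were Gpx3, a secreted glutathione peroxidase, Cd81, another tetraspanin, and Hist3h2ba, a histone. Id2 and Id3, which inhibit helix-loop-helix transcription factors, belonged to it as well. Cd81 stood at 207 to 232 CPM in insulin/Ppy cells, against 56.7 to 73.0 CPM in insulin cells and 280 to 385 CPM in PP cells. Etv1, a transcription factor of the ETS family, stood at 204, 139, 163 and 84.9 CPM in insulin/Ppy cells of the imeglimin 11.1 mM, vehicle 11.1 mM, imeglimin 3.9 mM and vehicle 3.9 mM libraries, against 59.8, 48.2, 11.04 and 7.32 CPM in insulin cells and 465, 376, 303 and 271 CPM in PP cells. Insulin cells thus had less Etv1 at 3.9 mM than at 11.1 mM, and the insulin/Ppy value stayed between the 2 classes in every library. Ctsz, a lysosomal protease, and Rbp4, which carries retinol, were also higher. They are over 10 times higher in macrophages and in somatostatin cells of several libraries, and Id3 in endothelial cells of the vehicle libraries. The part of free RNA from those cells in these 3 genes was not tested.

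Of the 11 PP markers listed, 5 other than Ppy reached 20 CPM in either class in each library and 4 of them (Pyy, Tspan8, Folr1 and Etv1) were at least 2-fold higher than in insulin cells, against 21 of 5083 genes (0.413%) at that level. The median log2 ratio of the 5, averaged over libraries, was 2.82, against -0.19 for all genes. The fifth, Meis2, stood at 170 to 247 CPM in insulin/Ppy cells, against 125 to 184 CPM in insulin cells and 263 to 361 CPM in PP cells.

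No beta-cell identity gene was at least 2-fold lower than in insulin cells in all 4 libraries, and the median of the list lay below that of all genes. Of 28 beta-cell identity genes 20 were measured, 0 were called in either direction, where 1 of 5083 genes (0.0197%) was lower. Their median log2 ratio was -0.67, against -0.19 for all genes. The genes furthest down were Sytl4, a granule transport protein, Ucn3, a peptide of mature beta cells, and Mafa, an activator of insulin transcription. Mafa stood at 172, 314, 15.2 and 42.5 CPM in insulin/Ppy cells of the imeglimin 11.1 mM, vehicle 11.1 mM, imeglimin 3.9 mM and vehicle 3.9 mM libraries, against 330, 576, 50.6 and 86.9 CPM in insulin cells and 2.36, 0.947, 5.83 and 9.04 CPM in PP cells. Ucn3 stood at 52.7, 116, 25.6 and 39.4 CPM in insulin/Ppy cells, against 124, 219, 52.5 and 84.8 CPM in insulin cells and 2.36, 4.73, 4.66 and 7.23 CPM in PP cells. Sytl4 ranged from 23.7 to 114 CPM in insulin/Ppy cells, against 73.8 to 243 CPM in insulin cells. In all 3 genes the insulin/Ppy value lay below the insulin value and above the PP value of the same library. The other named genes were Spc25, Sdk2, Lrrfip2, Tmem65, Maob, Atp2a2, Ero1lb, Prlr and Tmem215. Atp2a2, a calcium pump of the endoplasmic reticulum, stood at 574, 601, 392 and 898 CPM in insulin/Ppy cells, against 1063, 1089, 671 and 1459 CPM in insulin cells and 193, 216, 280 and 424 CPM in PP cells.

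Against PP cells the same identity genes stood out upward. Of 16 measured, 9 were at least 2-fold higher in all 4 libraries and 0 lower, against 27 of 5037 genes (0.536%) higher and 13 (0.258%) lower at the same 20 CPM. Their median log2 ratio was 1.84, against 0.04 for all genes. Iapp stood at 69829, 94413, 43085 and 48211 CPM in insulin/Ppy cells of the imeglimin 11.1 mM, vehicle 11.1 mM, imeglimin 3.9 mM and vehicle 3.9 mM libraries, against 17304, 13804, 16164 and 20350 CPM in PP cells. Slc30a8, the zinc transporter of insulin granules, stood at 166, 329, 131 and 185 CPM in insulin/Ppy cells, against 52.7, 91.8, 40.0 and 76.9 CPM in PP cells. Ero1lb, an endoplasmic reticulum oxidase that helps proinsulin form its disulfide bonds, stood at 144 to 385 CPM in insulin/Ppy cells, against 29.9 to 63.3 CPM in PP cells. Prss53, a serine protease, stood at 141, 317, 75.8 and 95.5 CPM in insulin/Ppy cells, against 4.72, 6.63, 10.1 and 21.7 CPM in PP cells. Papss2, which makes the sulfate donor, and Prlr, the prolactin receptor, were among the others. Enho, which encodes the secreted peptide adropin, stood at 168, 232, 95.7 and 186 CPM in insulin/Ppy cells, against 16.5, 38.8, 28.4 and 66.5 CPM in PP cells. Bace2, a membrane protease, ranged from 248 to 288 CPM in insulin/Ppy cells, against 64.4 to 125 CPM in PP cells. Ppp1r1a ranged from 86.1 to 254 CPM in insulin/Ppy cells, against 17.0 to 48.8 CPM in PP cells. Tmem65, Gng12 and Rnase4 were higher in every library but not 2-fold in each.

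Pyy, given above, and Calb1 were among the 4 genes at least 2-fold lower than in PP cells. Calb1, a calcium-binding protein, stood at 42.5 to 59.0 CPM in insulin/Ppy cells, against 103 to 183 CPM in PP cells. Gc, Tspan8, Gria2, Id3, Etv1, Gpx3, Alcam and Ocrl were lower than in PP cells in every library but not 2-fold in each.

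Pax6 and Neurod1 are transcription factors that endocrine cells of several types share. Pax6 stood at 91.0 to 285 CPM in insulin/Ppy cells, against 84.8 to 284 CPM in insulin cells and 149 to 241 CPM in PP cells. Neurod1 ranged from 120 to 196 CPM in insulin/Ppy cells, against 114 to 242 CPM in insulin cells and 104 to 148 CPM in PP cells. Of 18 granule and hormone-processing genes all 18 were measured against insulin cells and 0 were called in either direction, with a median log2 ratio of 0.00. The integrated stress response list had 0 of 23 measured genes called and a median of -0.50, and the unfolded protein response list 0 of 21 and -0.41. Only 2 of 16 immature or progenitor genes could be measured, of which Cd81 was higher. At the 20 CPM used for these lists 0.413% of all 5083 genes were higher and 0.0197% lower. Lists of this size with 0 calls therefore say little. The all-gene median, given above with the beta-cell identity genes, lay above those of both stress lists and below that of the granule list. No endothelial, stromal or acinar marker reached the level needed.

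No gene set insulin/Ppy cells apart from both classes at once. The call for this was at least 1.5-fold above both insulin and PP cells, or below both, in all 4 libraries. It was met by 0 of 2485 genes (0%) in either direction over all cells. Among the cells over the insulin median it was met by 0 of 2467 genes (0%).

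Most genes that differ between the parent classes were at intermediate levels. For genes at least 4-fold apart between insulin and PP cells of a library, the level in insulin/Ppy cells was placed on a line with 0% for the insulin level and 100% for the PP level, on plain CPM. Genes high in PP cells had a median place of 37.7% (58 genes), 27.3% (70 genes), 41.2% (42 genes) and 34.1% (45 genes) in the imeglimin 11.1 mM, vehicle 11.1 mM, imeglimin 3.9 mM and vehicle 3.9 mM libraries. Genes high in insulin cells had medians of 41.3% (54 genes), 40.9% (65 genes), 46.6% (27 genes) and 44.8% (28 genes). Between 81.5% and 100% of the genes lay between the parent levels. For the cells over the insulin median the medians were 26.7% to 40.8% for PP-high genes and 36.9% to 47.2% for insulin-high genes. A sum over a mixture of cells, or over pairs of cells, also lies between its sources, so these places do not tell those cases apart.

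**Figure D3:**
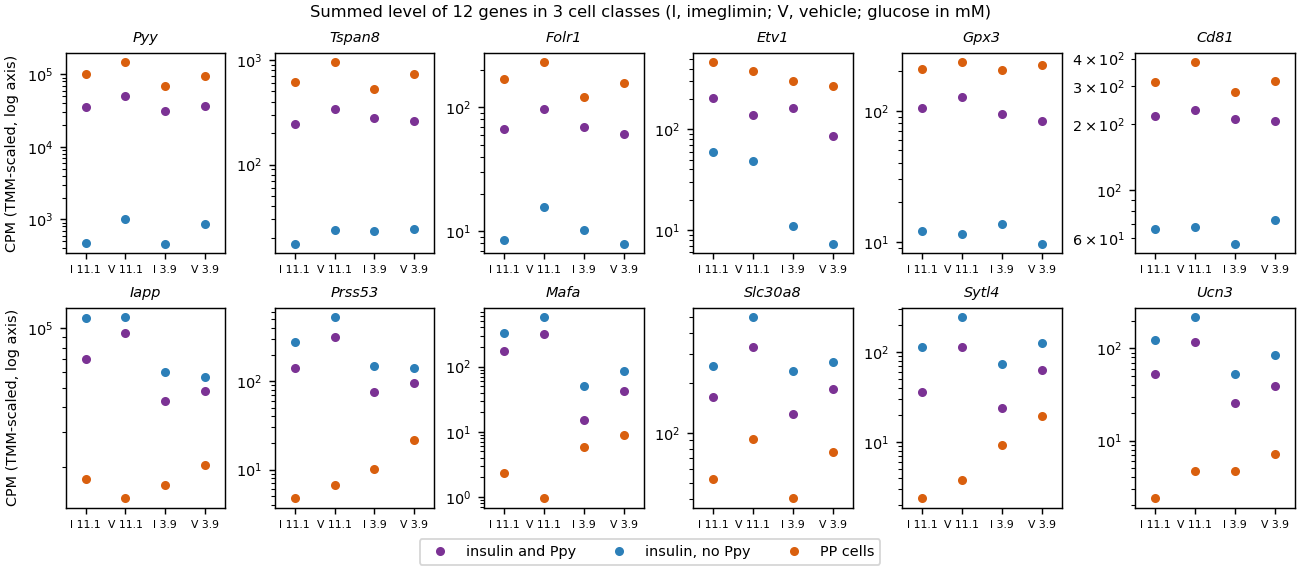
Levels of 12 genes (TMM-scaled CPM, log axes) in insulin/Ppy cells, insulin cells (insulin, no Ppy) and PP cells, 1 point per class and library. For all 12 genes the insulin/Ppy point lies between the insulin and PP points of the same library.

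The 73 cells at or under the insulin median differed from the 194 over it. Their place among insulin-high genes was further from insulin cells, at medians of 69.9%, 59.0% and 78.0% in the imeglimin 11.1 mM, vehicle 11.1 mM and vehicle 3.9 mM libraries. Among PP-high genes it was nearer to insulin cells, at 29.5%, 22.6% and 13.3%. By these medians they had less of the genes of both parent classes in the libraries named. The PP-high places were spread widely, with quartiles of 12.6% and 51.2%, 2.21% and 45.4%, and -0.803% and 45.3%. The imeglimin 3.9 mM library holds only 4 such cells and is given by its values alone here and in what follows. Its medians were 92.9% for insulin-high genes and 70.3% for PP-high genes, the latter further from insulin cells.

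Chga, chromogranin A of the secretory granule matrix, was 1 of 2 genes that stood above both parent classes in the low-UMI cells. Its TMM-scaled level was 7996, 12831, 2478 and 10430 CPM in insulin/Ppy cells at or under the insulin median in the imeglimin 11.1 mM, vehicle 11.1 mM, imeglimin 3.9 mM and vehicle 3.9 mM libraries. Insulin cells at or under that median had 3928, 6556, 4526 and 3544 CPM, PP cells at or under it 3876, 3076, 2466 and 3564 CPM, and insulin/Ppy cells over it 2951, 4583, 3266 and 2944 CPM. Chga was about 2 to 3 times as high as in low-UMI insulin cells in 3 libraries, with log2 ratios of 1.03, 0.97 and 1.56, and lower in imeglimin 3.9 mM, at -0.87, where 4 cells contribute. In those 3 libraries, 2 of 2941 genes (0.068%), Chga and the carbonic anhydrase gene Car15, were at least 1.5-fold above both parent classes of low UMI number. Another 8 (0.272%) were at least 1.5-fold below both, of which Rgs4 rested on 3 to 5 UMIs in each library. On plain CPM 7 of 2796 genes (0.25%) were above both, Chga and Car15 among them, and 0 (0%) below.

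Counted cell by cell, high Chga was common in these cells. Chga took a median of 0.926%, 1.31%, 0.319% and 1.06% of UMIs in low-UMI insulin/Ppy cells of the imeglimin 11.1 mM, vehicle 11.1 mM, imeglimin 3.9 mM and vehicle 3.9 mM libraries. The medians were 0.277%, 0.470%, 0.338% and 0.353% in low-UMI insulin cells and 0.234%, 0.344%, 0.279% and 0.308% in insulin/Ppy cells over the insulin median. Chga reached 0.8%, a step chosen after its values were seen, in 13 of 21, 28 of 34, 0 of 4 and 10 of 14 low-UMI insulin/Ppy cells. Among low-UMI insulin cells 4.10%, 16.8%, 8.40% and 7.82% reached it in these libraries, and among insulin/Ppy cells over the insulin median 9.68%, 12.9%, 11.6% and 6.90%. In PP cells of low UMI number the share was 14.4%, 9.18%, 7.59% and 14.9%.

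**Figure D4:**
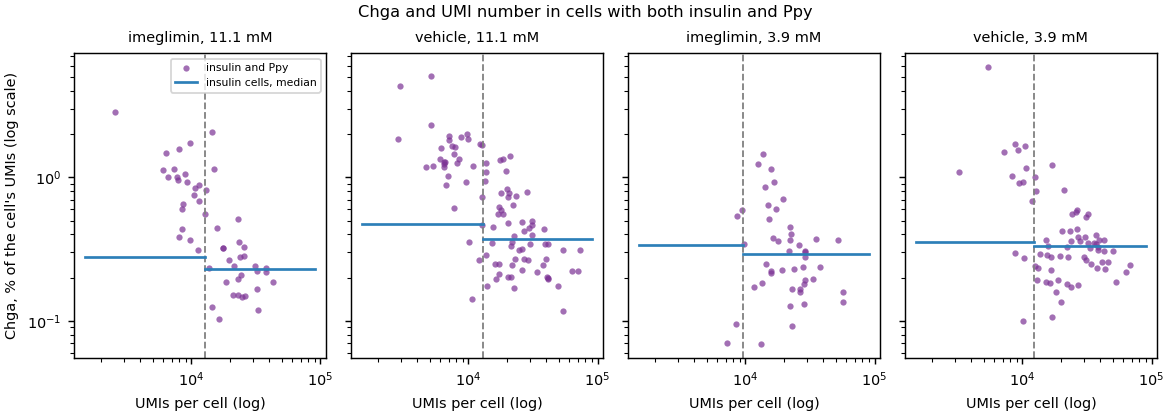
Chga as a percentage of the UMIs of each insulin/Ppy cell against its UMI number (log axes), by library, with a dashed line at the insulin median of UMIs and blue lines at the Chga medians of insulin cells on each side of it. High Chga lies on the low-UMI side in 3 libraries, where 51 of 69 cells reach 0.8%, and in imeglimin 3.9 mM 0 of 4 do.

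The high Chga extended to insulin cells just under the Ppy limit. Among low-UMI insulin cells with Ppy at 0.5% to 1% the median Chga share was 0.957% (9 cells), 1.05% (16 cells), 0.702% (6 cells) and 0.967% (3 cells) in the imeglimin 11.1 mM, vehicle 11.1 mM, imeglimin 3.9 mM and vehicle 3.9 mM libraries. With Ppy under 0.05% it was 0.276%, 0.463%, 0.342% and 0.350% in the same libraries. Among low-UMI insulin/Ppy cells with Ppy at 1% to 2% it was 1.01% (13 cells), 1.24% (17 cells), 0.542% (1 cell) and 1.09% (6 cells). Chga was therefore high on both sides of the Ppy limit in the low-UMI cells.

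Part of the beta-cell genes were lower in the low-UMI cells than in low-UMI insulin cells. Over the 3 libraries with more than 4 such cells, 6 of 21 measured identity genes (Ucn3, Mafa, Sytl4, G6pc2, Ero1lb and Igf1r) were at least 2-fold lower in each, and 0 higher. Among all 5672 genes at the same level 71 (1.25%) were lower and 31 (0.547%) higher. The median log2 ratio of the list was -0.86, against -0.32 for all genes. Mafa stood at 39.7, 103, 21.4 and 28.5 CPM in low-UMI insulin/Ppy cells of the imeglimin 11.1 mM, vehicle 11.1 mM, imeglimin 3.9 mM and vehicle 3.9 mM libraries, against 389, 649, 56.1 and 104 CPM in low-UMI insulin cells. Few UMIs lie behind some of these low-UMI levels. Cells over the insulin median held 152 of 160 Mafa UMIs of insulin/Ppy cells with imeglimin at 11.1 mM and 15 of 16 with imeglimin at 3.9 mM. For Ucn3 they held 42 of 49 with imeglimin at 11.1 mM. G6pc2, a glucose-6-phosphatase of beta cells, stood at 149 and 156 CPM in low-UMI insulin/Ppy cells of the imeglimin and vehicle 11.1 mM libraries, against 813 and 852 CPM in low-UMI insulin cells. Insulin itself was at a median of 13.6%, 15.4%, 8.18% and 10.3% of UMIs in low-UMI insulin/Ppy cells, against 24.8%, 31.1%, 11.1% and 8.30% in low-UMI insulin cells, so in vehicle 3.9 mM it was not lower.

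Of the integrated stress response, 3 of 23 measured genes, Nupr1, Aldh1l2 and Chac1, were at least 2-fold lower in the 3 libraries and 0 higher. Among all 5672 genes at the same level 1.25% were lower and 0.547% higher. The median log2 ratio of the list was -0.93, against -0.32 for all genes. Nupr1, a stress-induced chromatin protein, stood at 109, 21.2, 256 and 842 CPM in low-UMI insulin/Ppy cells of the imeglimin 11.1 mM, vehicle 11.1 mM, imeglimin 3.9 mM and vehicle 3.9 mM libraries, against 1136, 330, 908 and 2056 CPM in low-UMI insulin cells. Few UMIs lie behind the 11.1 mM values. Cells over the insulin median held 369 of 391 Nupr1 UMIs of insulin/Ppy cells with imeglimin at 11.1 mM and 264 of 270 with vehicle at 11.1 mM.  The metal-binding metallothioneins Mt1 and Mt2 were at least 2-fold lower as well. Mitochondrial UMIs were at a median of 3.28%, 2.84%, 2.38% and 2.95% in low-UMI insulin/Ppy cells, against 2.67%, 2.98%, 2.70% and 2.56% in low-UMI insulin cells, and did not set the cells apart.

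The comparison of imeglimin with vehicle was made within insulin/Ppy cells at each glucose level, on sums scaled with TMM over the 4 libraries. A gene was called where it was at least 2-fold apart with at least 100 CPM in either library. At 11.1 mM glucose 10 of 1329 genes (0.752%) were higher and 25 (1.88%) lower with imeglimin. At 3.9 mM glucose 37 of 1432 genes (2.58%) were higher and 33 (2.3%) lower. These counts turn on the scaling. On plain CPM 17 were higher and 14 lower at 11.1 mM, and 16 higher and 63 lower at 3.9 mM. There were 47 to 96 cells behind each sum, and 1 cell can set the value of a gene.

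Metallothioneins led the higher genes at 11.1 mM. Mt1 stood at 6399 CPM in insulin/Ppy cells with imeglimin, against 1909 CPM with vehicle, a log2 ratio of 1.74 (1.68 to 1.81). Mt2 stood at 1310 CPM with imeglimin, against 342 CPM with vehicle, a log2 ratio of 1.94 (1.80 to 2.08). The same ratios were 1.95 for Mt1 and 1.88 for Mt2 in insulin cells, and 2.23 for Mt1 and 2.27 for Mt2 in PP cells. The 2 genes were thus more than 3-fold higher with imeglimin in each of the 3 classes. At 3.9 mM the insulin/Ppy ratios were 0.66 for Mt1 and 0.81 for Mt2, under the 2-fold call.

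Of the integrated stress response, which slows protein synthesis under amino acid shortage and other stress, 2 of 18 measured genes were higher with imeglimin at 11.1 mM and 0 lower. For lists a gene counted as measured at 50 CPM in either library, and 25 of all 2849 genes (0.878%) were higher at that level. The median log2 ratio was 0.42, against -0.02 for all genes. Nupr1 stood at 430 CPM in insulin/Ppy cells with imeglimin, against 150 CPM with vehicle, and Trib3, a pseudokinase induced by this response, at 55.0 CPM with imeglimin, against 13.4 CPM with vehicle. At 3.9 mM Nupr1 went the other way, at 623 CPM with imeglimin, against 1357 CPM with vehicle, a log2 ratio of -1.12. In insulin cells the Nupr1 ratios were 1.83 at 11.1 mM and -0.87 at 3.9 mM. In PP cells they were 0.69 at 11.1 mM and 0.05 at 3.9 mM. The difference between the classes was not tested.

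Part of the beta-cell identity genes were lower with imeglimin in insulin/Ppy cells. At 11.1 mM 6 of 19 measured identity genes were at least 2-fold lower and 0 higher, against 59 of 2849 genes (2.07%) lower among all at the 50 CPM used for lists. The 6 were Sytl4, Mlxipl, Slc2a2, Ucn3, Glp1r and Ero1lb. In insulin cells at 11.1 mM, Mlxipl RNA was also met in fewer cells with imeglimin (18.8%) than with vehicle (57.0%), and Ucn3 RNA in 55.5% against 76.3%. All 32 named imeglimin results, Sytl4 at 11.1 mM among them, had the same direction in insulin cells, and 28 had it in PP cells. On plain CPM 3 of 19 were lower, against 1.27% of all genes. Slc2a2, the glucose transporter of mouse beta cells, stood at 51.7 CPM with imeglimin, against 130 CPM with vehicle. At 3.9 mM 6 of 16 were lower and 1, Nkx6-1, higher, against 91 of 2972 genes (3.06%) lower and 71 (2.39%) higher among all. On plain CPM the counts were also 6 and 1, against 5.24% of all genes lower. Glp1r, the receptor for glucagon-like peptide 1, stood at 40.6 CPM with imeglimin, against 208 CPM with vehicle, a log2 ratio of -2.35 (-2.85 to -1.89). The Glp1r ratio at 3.9 mM was -2.18 in insulin cells and -2.14 in PP cells. Nkx6-1, a transcription factor of beta cells, stood at 359 CPM with imeglimin, against 146 CPM with vehicle, a log2 ratio of 1.30, with 1.27 in insulin cells and 1.22 in PP cells. The list medians in insulin/Ppy cells were -0.42 at 11.1 mM, against -0.02 for all genes, and -0.43 at 3.9 mM, against 0.05 for all genes.

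The hormones themselves were less than 2-fold apart, and as genes of the selection they are values only. Ins2 had a log2 ratio of imeglimin to vehicle of -0.47 at 11.1 mM and 0.95 at 3.9 mM in insulin/Ppy cells, with -0.11 and 1.29 in insulin cells. Ppy had ratios of -0.23 at 11.1 mM and 0.17 at 3.9 mM in insulin/Ppy cells, with -0.23 and 0.03 in PP cells. Pyy, outside the selection, had -0.45 at 11.1 mM and -0.23 at 3.9 mM in insulin/Ppy cells, with -0.53 and -0.49 in PP cells.

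The insulin limit reads a condition that moves insulin itself. Where the limit was set at 25% of the median insulin share of each library's insulin cells, the share of insulin/Ppy cells was 0.534% with imeglimin against 1.18% with vehicle at 11.1 mM. At 3.9 mM it was 0.594% with imeglimin against 1.34% with vehicle. Without the barcodes over the 95th percentile of insulin-cell UMIs it was 0.559% with imeglimin against 1.09% with vehicle at 11.1 mM, and 0.383% with imeglimin against 0.713% with vehicle at 3.9 mM. The share was lower with imeglimin than with vehicle under each of these settings.

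At 3.9 mM several of the higher genes were set by single cells. Hspb1, a small heat shock protein, had a log2 ratio of 2.93 from 105 UMIs with imeglimin and 26 with vehicle, but 93 of the 105 came from 1 cell, and the ratio was 0.04 without the cell that held most UMIs in each library. Hspa1a, an inducible heat shock protein whose reads can be shared with its near-identical neighbour Hspa1b, had 2.28, and 0.13 without those cells. Clu, the secreted chaperone clusterin, had 2.26, and 0.64 without those cells. For Spp1, osteopontin, 315 of 671 UMIs lay in 1 cell, with 1.53 over all cells and 0.97 without. Jun and Tent5a did not depend on single cells. Jun, a part of the AP-1 transcription factor, stood at 216 CPM in insulin/Ppy cells with imeglimin, against 64.1 CPM with vehicle, a log2 ratio of 1.76, with 2.88 in insulin cells and 0.83 in PP cells. Tent5a, a poly(A) polymerase, stood at 147 CPM with imeglimin, against 32.8 CPM with vehicle, a log2 ratio of 2.16, with 2.39 in insulin cells and 0.83 in PP cells.

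Metabolic genes were among those lower at 3.9 mM. Acly, which makes acetyl-CoA for lipid synthesis, stood at 110 CPM in insulin/Ppy cells with imeglimin, against 333 CPM with vehicle, a log2 ratio of -1.59, with -1.42 in insulin cells and -1.17 in PP cells. Of 8 measured glycolysis genes 3 (Pfkl, Tpi1 and Eno1) were at least 2-fold lower and 0 higher, beside the 3.06% of all genes given above, with a list median of -0.79, against 0.05 for all genes. Rnase4 and Ang, which share a locus and can share reads, were lower as well, with log2 ratios of -1.56 and -1.50. At 11.1 mM the genes furthest down were Hspb1, with 8 UMIs with imeglimin against 208 with vehicle, 94 of them in 1 cell, Tmsb15b2, which has near-identical copies, and Hepacam2, a membrane protein at 24.2 CPM with imeglimin, against 110 CPM with vehicle.

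Other named genes at 11.1 mM included Id2, at 310 CPM in insulin/Ppy cells with imeglimin, against 105 CPM with vehicle, and Odc1, which starts polyamine synthesis, at 256 CPM with imeglimin, against 96.3 CPM with vehicle. The nuclear RNAs Malat1 and Neat1 had log2 ratios of 1.08 and 1.02, and Id3 had 1.11. Lower at 11.1 mM were Shisal2b (-1.92), Rbp4 (-1.57), Sytl4 (-1.66) and Fam183b (-1.41), of which Shisal2b and Rbp4 are over 10 times higher in somatostatin cells of some libraries. Ppp1r1a, an inhibitor of protein phosphatase 1, had a log2 ratio of -1.54 in insulin/Ppy cells and -1.14 in insulin cells at 11.1 mM. In PP cells it had 0.37 (-0.53 to 1.31), where the sums were 28 UMIs for imeglimin and 18 for vehicle. At 3.9 mM the chromatin protein gene Hmgb2 (1.69) and Nfkbia (1.41), an inhibitor of NF-kappaB, were higher, with 1.71 and 2.20 in insulin cells. Sez6l (-1.66), Ociad2 (-1.62), Fam183b (-1.69) and Gnai2 (-1.27), an inhibitory G-protein subunit, were lower. All of these ratios come from the same 4 libraries as those of insulin and PP cells, so values side by side are not independent of each other.

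**Figure D5:**
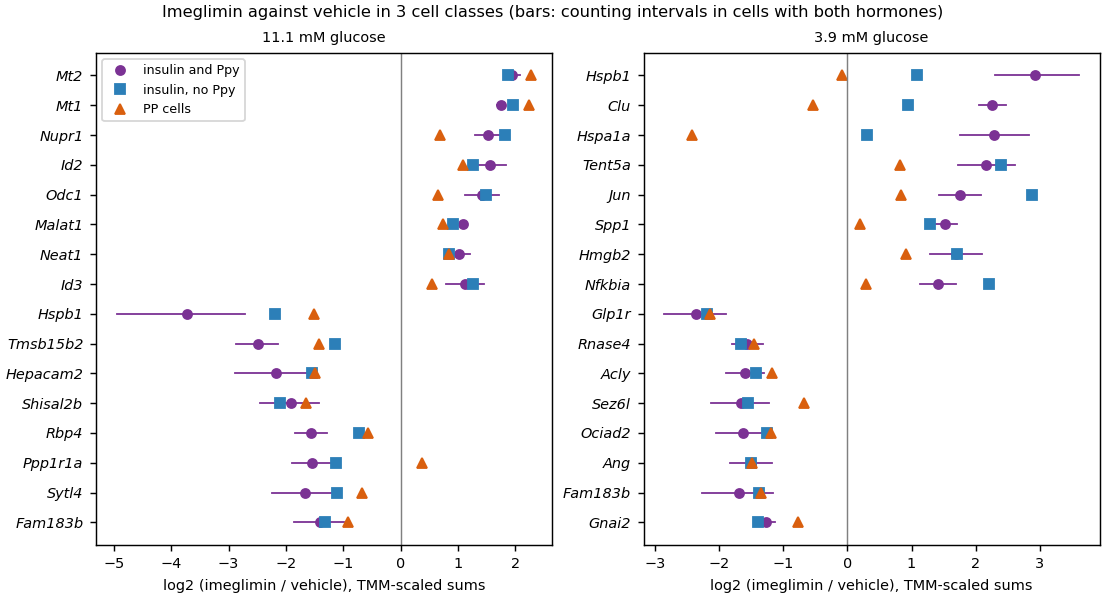
Log2 ratio of imeglimin to vehicle for the named genes at each glucose level in insulin/Ppy cells, insulin cells and PP cells, with 95% counting intervals for insulin/Ppy cells. Mt1 and Mt2 lie above 1.7 in all 3 classes at 11.1 mM, and for Hspb1, Clu and Hspa1a at 3.9 mM most of the insulin/Ppy value rests on 1 cell.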

How the data were processed

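Islet cells of 4 cultures were sequenced by the droplet method, 1 library per condition. The deposited matrices hold counts of UMIs per gene and barcode, made with Cell Ranger 6.0.2 and the mm10 genome, per the submitters' processing notes. Other settings are not given in the sources used here. Barcodes were classed by their hormone shares. The rule that selected the cells, the gene lists and the steps were chosen with earlier results of these data known.

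Counts were summed per class and library and scaled with TMM (edgeR 4.0.16 in R 4.3.3, Python 3.11.15). Folds of sums have exact Poisson intervals, shares Clopper-Pearson intervals and medians order-statistic intervals, at 95%. A sum of 0 was set to 3 UMIs. The scripts were tested on simulated data.

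Named genes were, against insulin and PP cells, the 12 highest and 12 lowest by the smallest log2 ratio over the 4 libraries, with the same direction in all under TMM and plain CPM. For imeglimin they were the 8 highest and 8 lowest by the interval bound nearest 0. The selecting hormones, ribosomal protein genes and unnamed gene models were left out. Doublets were judged by UMI number only. A few named genes are not reported here. No paired analysis was possible because each condition has 1 library.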

Additional observations from a re-analysis of the deposited data

Results flagged for a closer look

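Barcodes that missed the limits on UMIs, genes or mitochondrial UMIs but passed both hormone limits numbered 8 with imeglimin at 3.9 mM, against 1 with vehicle at 3.9 mM, and 2 with imeglimin at 11.1 mM, against 1 with vehicle at 11.1 mM. They lie outside the cells compared and were picked out because their number exceeded that of the vehicle library.

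For 4 genes flagged here the imeglimin ratio in insulin/Ppy cells had opposite directions at the 2 glucose levels. They are not the only such genes. Ppp1r1a had log2 ratios of 0.15 at 3.9 mM and -1.54 at 11.1 mM, and Nfkbia 1.41 at 3.9 mM and -0.24 at 11.1 mM. The difference was not tested, since each condition is 1 library. For Hspa1a the log2 ratio was 2.283 at 3.9 mM and -4.177 at 11.1 mM. For Hspb1 it was 2.928 at 3.9 mM and -3.717 at 11.1 mM, and both genes rest on single cells at 3.9 mM. At 11.1 mM 104 of the 143 Hspa1a UMIs with vehicle also lay in 1 cell, and the ratio was -2.717 without the cell that held most UMIs in each library. For Hspb1 it was -4.265 without those cells. For Nupr1 it was 1.517 at 11.1 mM and -1.123 at 3.9 mM. For Rbp4, which is over 10 times higher in somatostatin cells of each library but imeglimin 3.9 mM, it was 0.4213 at 3.9 mM and -1.565 at 11.1 mM.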

How the results depend on the processing

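Of the values recomputed for shares, UMI ratios, pair ratios and gene counts, 143 stayed within the counting interval or within 1.5 times the count, and 57 moved. The cause was not tested. A minimum of 3000 UMIs, a maximum of 10% mitochondrial UMIs, thinning, and the cells over the insulin median moved none of these. With Ppy at least 2%, the shares became 0.4035% with imeglimin at 11.1 mM, 0.7792% with vehicle at 11.1 mM and 0.7675% with vehicle at 3.9 mM, the pair ratios at 11.1 mM 0.2955 for imeglimin and 0.504 for vehicle, and 2 genes were lower than in insulin cells. Hspb1 and Hspa1a at 3.9 mM then reversed to -0.2103 and -0.02588. With insulin at least 8%, the shares at 3.9 mM became 0.3655% with imeglimin and 0.5582% with vehicle, the UMI ratio to insulin cells with vehicle at 3.9 mM 1.355, and 8 genes were higher than in insulin cells and 10 lower than in PP cells. Without barcodes over the 95th percentile, the shares at 3.9 mM became 0.3832% with imeglimin and 0.713% with vehicle. With vehicle at 3.9 mM the UMI ratio became 1.327 to insulin and 1.624 to PP cells and the pair ratio 0.3794, and 1 gene was lower than in insulin cells and 7 lower than in PP cells. The insulin limit relative to each library, chosen after seeing the data, gave vehicle 3.9 mM a share of 1.34% and a pair ratio of 0.6005.

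Gene counts moved most with the minimum level. With none, 3670 genes were counted as higher and 8 as lower than in insulin cells, 84 higher and 62 lower than in PP cells, and with imeglimin 2251 higher and 1249 lower at 3.9 mM and 2109 higher and 1066 lower at 11.1 mM. Here a sum of 0 was set to 3 UMIs, which can exceed the CPM of a gene with few UMIs in the other sum. A gene with 0 UMIs in insulin/Ppy cells can thus count as higher, and so can one with 0 UMIs with imeglimin. The number of such genes was not tested, so these counts cannot be read as genes that were higher. With 20 CPM, 1 was lower than in insulin cells, 27 higher and 13 lower than in PP cells, and with imeglimin 182 were higher and 274 lower at 3.9 mM and 91 higher and 188 lower at 11.1 mM. Plain CPM gave 8 lower than in PP cells and, with imeglimin, 16 higher and 63 lower at 3.9 mM and 17 higher and 14 lower at 11.1 mM. CPM without hormone and mitochondrial genes gave 76 lower at 3.9 mM and 17 higher and 46 lower at 11.1 mM. The mean of per-cell CPM gave 1 lower than in insulin cells and 7 lower than in PP cells. The cells at or under the insulin median, a split chosen after seeing the data, gave 9 higher and 13 lower than in insulin cells, 16 lower than in PP cells, and with imeglimin 94 higher and 481 lower at 3.9 mM and 77 higher and 94 lower at 11.1 mM. Ang at 3.9 mM then reversed to 0.3254. The imeglimin values of this split rest on 4 cells with imeglimin and 14 with vehicle at 3.9 mM. At 11.1 mM they rest on 21 cells with imeglimin and 34 with vehicle. Leaving out 1 library at a time gave 16 genes higher and 0 to 1 lower than in insulin cells, and 10 to 20 higher and 4 to 13 lower than in PP cells. The extremes of 20 and 13 came without imeglimin 3.9 mM, and 7 were lower than in PP cells without imeglimin 11.1 mM. Of single named genes, 521 values stayed, 116 moved and 3 reversed. The limits are 1 library per condition and 47 to 96 cells per sum, with fewer where a setting leaves cells out. No paired analysis was possible because the groups share a replicate number of 1 library each.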
